A study of Mus musculus with 27 samples.

Results

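The myeloid C-type lectin receptors described here are 10 genes, Clec4a1, Clec4a2, Clec4a3, Clec4d, Clec4e, Clec4n, Clec5a, Clec7a, Clec10a and Clec12a, of 19937 genes measured in mouse hearts. They were taken by symbol from the probe annotation, and each of the 10 has 1 probe set that names it and no other gene. The set was proposed with earlier results of these arrays known, in which Clec4a1 and Clec12a stood among the largest falls with JQ1 at day 3. Day 3 was therefore treated as the readout that the members were chosen by, and its comparisons are given as values without a test. The rule has no threshold on any value.

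The hearts came from C57Bl/6J male littermates of 10 to 12 weeks. There were 9 groups of 3 arrays: at each of days 3, 11 and 28 after surgery, hearts with transverse aortic constriction (TAC) and JQ1, hearts with TAC and vehicle, and hearts with sham surgery and vehicle (DMSO). TAC narrows the aortic arch, here with a peak gradient of about 50 mmHg per the labels' protocol, and loads the left ventricle with pressure, and JQ1 displaces BET bromodomain proteins from acetylated chromatin. Injections started 1.5 days after the operation, so at day 3 the exposure to JQ1 was short, and no group combined sham surgery with JQ1. RNA was taken from a 10 to 20 mg piece of whole heart, in which myeloid cells are a minority. The labels do not say that each array is a separate animal, so the spread behind each p-value is that between arrays and may be technical.

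C-type lectin receptors sit on the surface of macrophages, monocytes, dendritic cells and neutrophils and bind sugars, lipids and products of dead cells. Activating members signal through an ITAM, a tyrosine motif carried by an adaptor (the Fc receptor gamma chain Fcer1g, or DAP12, encoded by Tyrobp) or by the receptor's own tail, to the kinase Syk and on to Card9 and NF-kB. Inhibitory members carry an ITIM, which recruits the phosphatases SHP-1 (Ptpn6) and SHIP-1 (Inpp5d). In bulk tissue, fewer cells of a type and less RNA per cell cannot be told apart.

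Of the 10 receptors 9 lie on chromosome 6 and Clec10a lies on chromosome 11. In the RefSeq annotation (GRCm38.p6) Clec4a1, Clec4a3, Clec4a2, Clec4n, Clec4d and Clec4e stand in 1 stretch of 9 genes, with Clec4a4, Clec4b1 and Clec4b2 between them, while Clec12a and Clec7a are the ends of another stretch of 6. The promoter windows of 4 genes of chromosome 6 are printed because Clec4a1 and Clec12a were the furthest below TAC vehicle with JQ1 while Clec4d, which fell at day 11, and Clec4e were not called at day 28, as given below. Each window holds the 250 bases before the RefSeq start (GRCm38.p6), written 5′ to 3′ on the gene's strand. Capitals mark GAGGAA, the core of many PU.1 sites, PU.1 being the ETS factor of myeloid cells, or TTCCTC, which is the same motif on the opposite strand. Clec4a1 is at chr6:122921598-122921847 (plus strand), Clec12a at chr6:129349994-129350243 (plus strand), Clec4d at chr6:123261857-123262106 (plus strand) and Clec4e at chr6:123289872-123290121 (minus strand).
Clec4a1: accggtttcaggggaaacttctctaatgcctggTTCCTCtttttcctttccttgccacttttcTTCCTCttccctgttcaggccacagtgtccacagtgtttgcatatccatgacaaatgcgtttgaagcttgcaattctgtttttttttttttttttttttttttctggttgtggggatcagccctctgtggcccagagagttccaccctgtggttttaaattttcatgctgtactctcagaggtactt
Clec12a: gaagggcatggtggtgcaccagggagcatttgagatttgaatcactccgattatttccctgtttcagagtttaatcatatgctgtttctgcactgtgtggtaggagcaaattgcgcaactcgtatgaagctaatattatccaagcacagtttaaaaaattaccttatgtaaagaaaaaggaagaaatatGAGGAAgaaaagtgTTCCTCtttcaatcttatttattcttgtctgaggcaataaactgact
Clec4d: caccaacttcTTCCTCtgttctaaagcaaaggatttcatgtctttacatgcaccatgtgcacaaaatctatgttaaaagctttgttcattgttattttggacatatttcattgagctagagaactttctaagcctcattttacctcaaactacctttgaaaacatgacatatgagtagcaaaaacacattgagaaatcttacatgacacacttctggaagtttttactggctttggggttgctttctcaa
Clec4e: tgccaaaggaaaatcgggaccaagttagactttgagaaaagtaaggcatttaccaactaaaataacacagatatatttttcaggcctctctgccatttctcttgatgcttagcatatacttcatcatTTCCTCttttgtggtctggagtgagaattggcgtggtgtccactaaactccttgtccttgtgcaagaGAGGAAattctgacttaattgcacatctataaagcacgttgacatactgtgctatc
The RefSeq table held a window for 8 of the 10 receptors, 2 of them with 2 windows. Of these 8, 7 had GAGGAA on either strand in at least 1 window. Counted by window it was 8 of 10, beside 23.3% of the 32851 windows of all genes. Clec4a2 had none. The AP-1 motif TGANTCA was found in 1 receptor (Clec12a), against 6.75% of all windows, the C/EBP motif TTGCNNAA in 2 (Clec12a and Clec4e), against 9.56%, and TATAAA in 3 (Clec4a2, Clec4e and Clec5a), against 12.4%. Each receptor named here has 1 window. No matches of different motifs overlapped in these windows. GAGGAA stood in the windows of Clec4a1 and Clec12a and also in that of Clec4e, which was not called, and a match describes letters in the window, not a bound site.

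The deposited values are log2 signals, and differences below are log2 differences between group means ± SE from 1 limma fit of all 27 arrays, with p adjusted by Benjamini-Hochberg over 19937 genes and a gene called at adjusted p under 0.05. Array medians lay between 6.95 and 7.04. The values carry no detection call, and a level depends on its probe, so levels of different receptors are not compared. Clec4a2 in TAC JQ1 hearts lay at the 13.3rd to 15th percentile of all probe sets, and Clec12a in TAC vehicle hearts at the 69.4th to 76.4th. By group mean the 10 cardiomyocyte markers averaged 13.33 to 13.45 in the 9 groups and the 18 pan-macrophage markers 8.12 to 9. These levels give no share of cells.

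**Figure D1:**
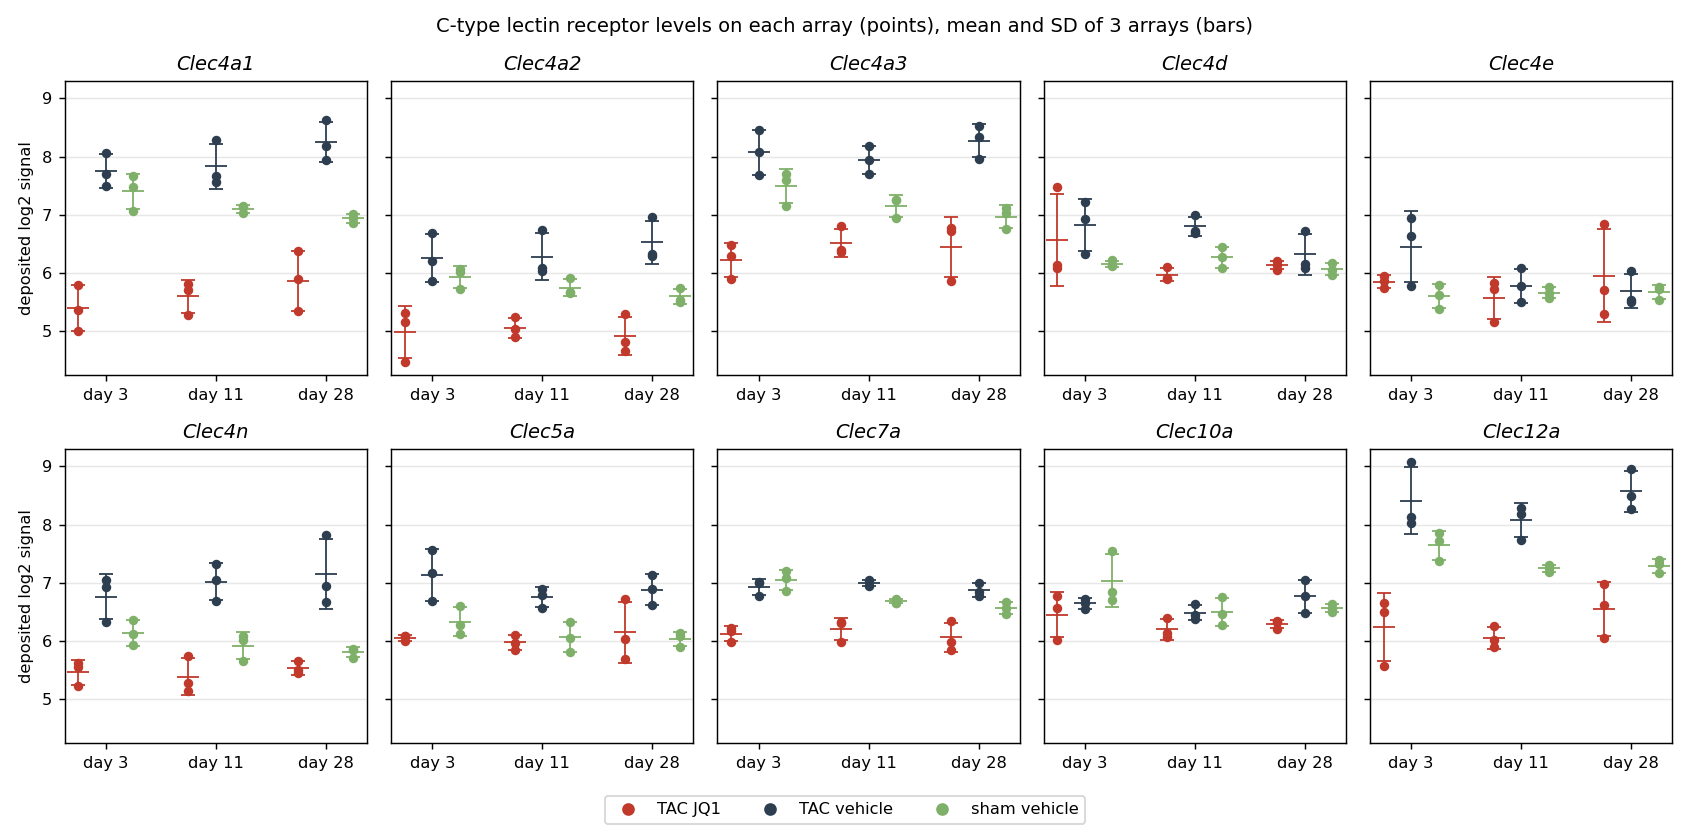
Deposited log2 signal (vertical axis) of the 10 receptors on each of the 27 arrays at days 3, 11 and 28; points are arrays, horizontal marks and bars the mean and SD of 3 arrays, and colours the TAC JQ1, TAC vehicle and sham vehicle groups. Clec4a1, Clec4a2, Clec4a3, Clec12a and Clec4n were lowest in TAC JQ1 hearts and highest in TAC vehicle hearts by group mean at every day, whereas Clec4e and Clec10a overlapped between groups on most days.

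With JQ1 most of these receptors were lower than in TAC hearts given vehicle, at both days that were tested. At day 11, 8 of 10 fell, where 8.43% of all genes fell, and at day 28, 7 of 10 fell, where 12.4% of all genes fell. None rose, nor did any at an unadjusted p under 0.05 in limma. The median difference of the 10 was -1.03 at day 11 and -1.21 at day 28, against -0.05 and 0.06 over all genes. Clec4a1 had the largest fall of all 19937 genes at day 11 and the 4th largest at day 28, and Clec12a ranked 3rd and 9th.

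Among the members, the gene of the dendritic cell immunoreceptor (DCIR) and its paralogues (Clec4a1, Clec4a2 and Clec4a3) fell together with Clec12a. Clec4a4, which lies in the same stretch and is not a member, was not called, as given below. Clec4a1, a mouse DCIR paralogue also called DCIR4, had 5.28, 5.7 and 5.81 in TAC JQ1 hearts at day 11, against 7.56, 7.67 and 8.28 in TAC vehicle hearts. Its day 28 values were 5.34, 5.89 and 6.37 in TAC JQ1 hearts, against 7.95, 8.18 and 8.63 in TAC vehicle hearts. Every JQ1 array lay below every TAC vehicle array by more than the whole spread within either group. The difference was -2.24 ± 0.24 at day 11 (adjusted p = 2.12e-06) and -2.39 ± 0.24 at day 28 (adjusted p = 4.02e-07), that is 4.73-fold and 5.23-fold lower. Clec12a, the inhibitory ITIM receptor also called MICL, which binds uric acid crystals, had 5.89, 6.01 and 6.26 in TAC JQ1 hearts at day 11, against 7.74, 8.19 and 8.29 in TAC vehicle hearts. On day 28 Clec12a had 6.05, 6.61 and 6.97 in TAC JQ1 hearts, against 8.26, 8.49 and 8.96 in TAC vehicle hearts. The groups again did not overlap, with a difference of -2.02 ± 0.27 at both days (adjusted p = 2.26e-05 at day 11 and 1.19e-05 at day 28).

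Clec4a3, another DCIR paralogue, had 6.36, 6.39 and 6.8 in TAC JQ1 hearts at day 11, against 7.7, 7.95 and 8.18 in TAC vehicle hearts, and 5.86, 6.73 and 6.77 at day 28, against 7.96, 8.34 and 8.53. It fell by 1.43 ± 0.23 and 1.83 ± 0.23 (adjusted p = 0.000145 and 5.42e-06). Clec4a2, which encodes DCIR itself and carries an ITIM, had 4.9, 5.04 and 5.24 in TAC JQ1 hearts at day 11, against 6.03, 6.08 and 6.74 in TAC vehicle hearts, and 4.66, 4.82 and 5.29 at day 28, against 6.3, 6.32 and 6.96. It fell by 1.22 ± 0.23 and 1.61 ± 0.23 (adjusted p = 0.000729 and 2.61e-05). Neither receptor had overlapping groups at these days. Clec4a1, Clec4a2 and Clec4a3 are close paralogues, and how far their probes bind each other's transcripts was not tested.

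Of the 3 members in the stretch that couple to the Fc receptor gamma chain, 2 were called at day 11 and 1 at day 28. Genes of the stretch that are not members are left out of this count, and differences between receptors were not tested. Clec4n (dectin-2), a receptor for fungal mannans, had 5.14, 5.28 and 5.74 in TAC JQ1 hearts at day 11, against 6.69, 7.04 and 7.33 in TAC vehicle hearts. The day 28 arrays had 5.44, 5.5 and 5.66 in TAC JQ1 hearts, against 6.67, 6.94 and 7.82 in TAC vehicle hearts. Its groups were apart at both days, and it fell by 1.63 ± 0.23 and 1.61 ± 0.23 (adjusted p = 3.6e-05 and 2.42e-05). Clec4d (MCL, or dectin-3), which pairs with Mincle, had 5.9, 5.92 and 6.1 in TAC JQ1 hearts at day 11, against 6.69, 6.73 and 6.99 in TAC vehicle hearts, and fell by 0.83 ± 0.25 (adjusted p = 0.0251). At day 28 its groups overlapped and the difference was -0.19 ± 0.25 (adjusted p = 0.608, 95% interval -0.7 to 0.33). Clec4d lost its day 11 call when TAC vehicle replicate 1 or 2, or TAC JQ1 replicate 1 or 2, was left out (adjusted p = 0.0548 to 0.1).

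Clec4e (Mincle), a receptor for glycolipids of mycobacteria and for products of dying cells, was not called at either day. It had 5.15, 5.73 and 5.83 in TAC JQ1 hearts at day 11, against 5.5, 5.77 and 6.08 in TAC vehicle hearts (difference -0.21 ± 0.29, adjusted p = 0.671, 95% interval -0.81 to 0.39). Clec4e at day 28 had 5.3, 5.71 and 6.85 in TAC JQ1 hearts, against 5.51, 5.54 and 6.03 in TAC vehicle hearts (difference 0.26 ± 0.29, adjusted p = 0.53, 95% interval -0.34 to 0.86). The 6.85 belongs to TAC JQ1 replicate 3, and without this array the day 28 difference was -0.19. On the same array the mean of 15 neutrophil markers was 6.9 and that of 16 cytokine and chemokine targets of the pathway 7.2, against 6.12 to 6.13 and 6.23 to 6.26 on the other two TAC JQ1 arrays of day 28. The part of these genes in the Clec4e value was not tested.

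Clec7a (dectin-1), the receptor for fungal beta-glucan with an ITAM-like motif in its own tail, showed a smaller difference with little spread. It had 5.99, 6.3 and 6.32 in TAC JQ1 hearts at day 11, against 6.94, 7.02 and 7.04 in TAC vehicle hearts, and 5.85, 5.99 and 6.34 at day 28, against 6.78, 6.84 and 7. It fell by 0.80 ± 0.11 and 0.82 ± 0.11 (adjusted p = 4.61e-05 and 2.1e-05). Clec5a (MDL-1), which signals through DAP12, had 5.85, 5.97 and 6.1 in TAC JQ1 hearts at day 11, against 6.56, 6.79 and 6.9 in TAC vehicle hearts, and fell by 0.78 ± 0.21 (adjusted p = 0.0132). On day 28 Clec5a had 5.69, 6.04 and 6.72 in TAC JQ1 hearts, against 6.61, 6.89 and 7.14 in TAC vehicle hearts, and fell by 0.73 ± 0.21 (adjusted p = 0.0163) although the groups overlapped. The Clec5a calls were lost at day 11 without TAC vehicle replicate 1 (adjusted p = 0.0615) and at day 28 without TAC vehicle replicate 3, TAC JQ1 replicate 1 or TAC JQ1 replicate 2 (0.0589 to 0.134), or with only the groups compared in the fit (0.0807).

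Clec10a (MGL1), a galactose-binding receptor, did not pass the test. It had 6.07, 6.13 and 6.4 in TAC JQ1 hearts at day 11, against 6.38, 6.44 and 6.63 in TAC vehicle hearts (difference -0.28 ± 0.19, adjusted p = 0.337). Clec10a at day 28 had 6.21, 6.33 and 6.34 in TAC JQ1 hearts, against 6.48, 6.78 and 7.05 in TAC vehicle hearts, without overlap (difference -0.48 ± 0.19, adjusted p = 0.0722). It passed at day 28 without TAC vehicle replicate 1 (adjusted p = 0.0373) and after a second quantile normalization (0.0466).

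**Figure D2:**
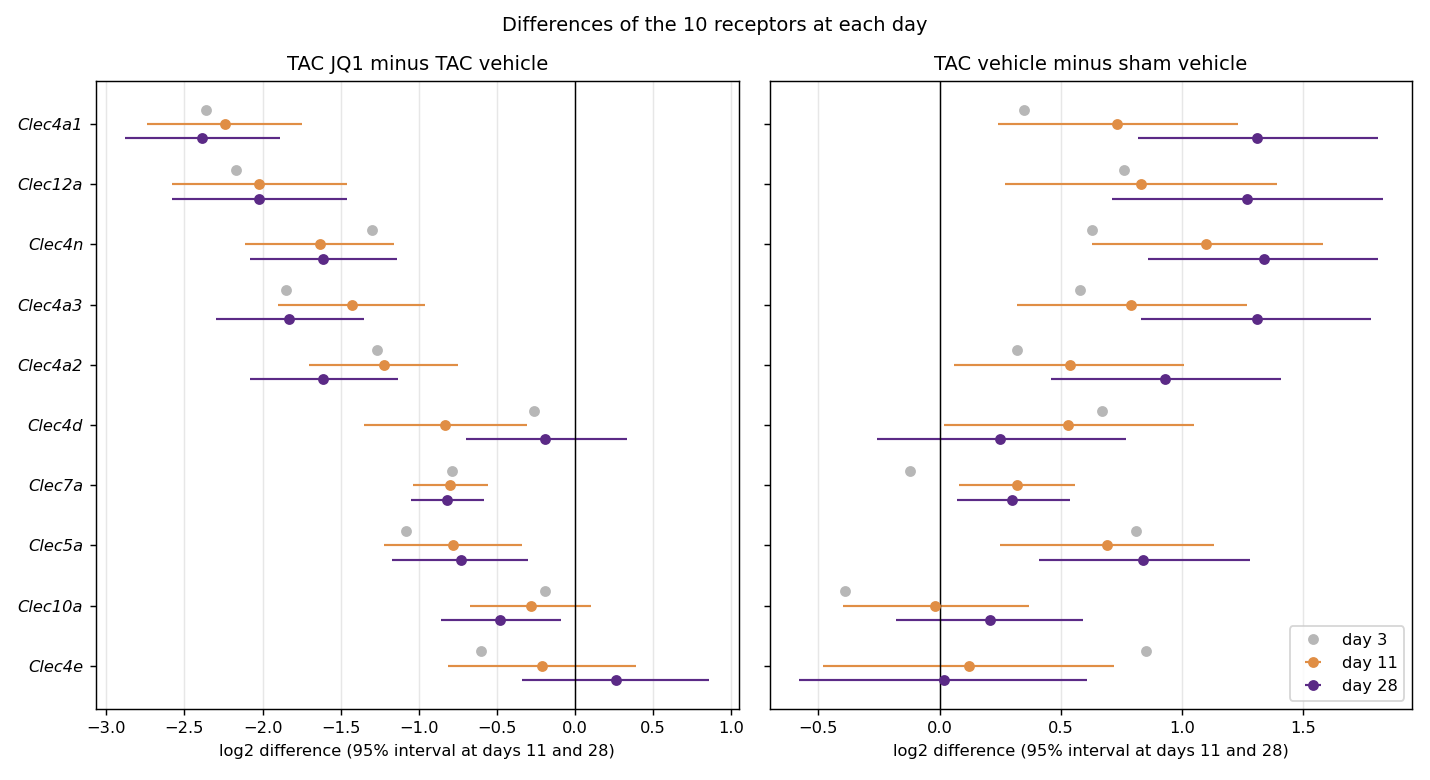
Log2 differences (horizontal axis) of the 10 receptors (rows) for TAC JQ1 minus TAC vehicle (left) and TAC vehicle minus sham vehicle (right) at days 3, 11 and 28, with 95% intervals at days 11 and 28. In the left panel Clec4a1 and Clec12a lie furthest from 0 at each day, at -2.24 and -2.02 at day 11. The values nearest to 0 are those of Clec4e at day 11 (-0.21), Clec4d at day 28 (-0.19) and Clec10a at day 3 (-0.19).

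The JQ1 difference did not change detectably between days 11 and 28. No receptor was called for day 28 minus day 11, where 0.853% of all genes were called in either direction, and none had an unadjusted p under 0.05 in limma. The differences of differences ran from -0.40 for Clec4a3 to 0.64 for Clec4d, with SE of 0.16 to 0.41, which leaves room for sizeable changes. The values of the 2 days share no array.

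Under pressure load without JQ1 several of these receptors were higher than in sham hearts. TAC vehicle hearts had 5 of 10 higher than sham vehicle hearts at day 11, where 7.8% of all genes rose, and 6 of 10 at day 28, where 8.13% rose. None fell, nor did any at an unadjusted p under 0.05 in limma. The median difference of the 10 was 0.61 and 0.89, against 0.01 and -0.05 over all genes. The TAC vehicle arrays are shared with the JQ1 comparison, so the values of the 2 comparisons are set side by side and no relation between them is read.

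Clec4n had 6.69, 7.04 and 7.33 in TAC vehicle hearts at day 11, against 5.65, 6.02 and 6.09 in sham hearts, and rose by 1.10 ± 0.23 (adjusted p = 0.00148). The day 28 values were 6.67, 6.94 and 7.82 in TAC vehicle hearts, against 5.71, 5.85 and 5.86 in sham hearts, and rose by 1.34 ± 0.23 (adjusted p = 0.000264). It kept its call without each of the 27 arrays in turn at both days. Clec4a1 rose by 0.73 ± 0.24 at day 11 (adjusted p = 0.039) and by 1.31 ± 0.24 at day 28 (0.000477). Clec4a3 rose by 0.79 ± 0.23 (0.0184) and 1.31 ± 0.23 (0.000321). Clec12a rose by 0.83 ± 0.27 (0.0384) and 1.27 ± 0.27 (0.00198), and Clec5a by 0.69 ± 0.21 (0.0266) and 0.84 ± 0.21 (0.00735). In these 4 receptors the TAC vehicle and sham arrays did not overlap at days 11 and 28.

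Clec4a2 was called at day 28, at 6.3, 6.32 and 6.96 in TAC vehicle hearts against 5.5, 5.54 and 5.75 in sham hearts (0.93 ± 0.23, adjusted p = 0.00666), and missed at day 11 (0.54 ± 0.23, adjusted p = 0.132). Clec7a had values of 0.32 ± 0.11 and 0.30 ± 0.11 without overlap of the groups and missed the threshold at both days (adjusted p = 0.0617 and 0.0798). It passed under 5 of the 9 other settings at day 11 (0.0114 to 0.0468) and under 2 at day 28 (0.0136 and 0.0418). Clec4d had 0.53 ± 0.25 and 0.25 ± 0.25 (0.174 and 0.536). Clec4e had 0.12 ± 0.29 and 0.02 ± 0.29 (0.887 and 0.976), and Clec10a -0.02 ± 0.19 and 0.21 ± 0.19 (0.98 and 0.494). The 95% intervals at day 28 reached 0.61 for Clec4e and 0.59 for Clec10a.

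Several of the day 11 calls did not hold with 1 array left out. Without TAC vehicle replicate 1 the calls of Clec4a1 (0.51, adjusted p = 0.235), Clec4a3 (0.67, 0.0968), Clec5a (0.62, 0.106) and Clec12a (0.72, 0.147) were lost, and the same 4 were lost without TAC vehicle replicate 3 (0.0522 to 0.114). Leaving out a sham array ended the calls of Clec4a1 and Clec12a whichever of the 3 it was, that of Clec5a without replicate 1 or 2 and that of Clec4a3 without replicate 2. The differences without a sham array stayed near those of the full fit, at 0.7 to 0.75 for Clec4a1 and 0.8 to 0.86 for Clec12a. These 2 calls were thus close to the threshold and were not decided by 1 particular sham array. With each of the 27 arrays left out in turn, the count of members called at day 11 ranged from 1 to 6. At day 28 the count ranged from 4 to 7, and Clec4a2 (adjusted p = 0.0706) and Clec5a (0.0609) lost their calls without TAC vehicle replicate 3. No receptor was called for the TAC effect of day 28 minus that of day 11, where 0.145% of all genes were, and none had an unadjusted p under 0.05 in limma. These differences of differences ran from -0.28 for Clec4d to 0.58 for Clec4a1.

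Hearts with TAC and JQ1 were set against sham hearts as well. At day 11, 3 of 10 receptors were lower in TAC JQ1 hearts, where 5.51% of all genes were lower, and at day 28 also 3 of 10, where 12.6% were. None was higher, nor was any at an unadjusted p under 0.05 in limma. Clec4a1 had 5.28, 5.7 and 5.81 in TAC JQ1 hearts at day 11, against 7.03, 7.14 and 7.15 in sham hearts, and fell by 1.51 ± 0.24 (adjusted p = 0.000218). By day 28 the values were 5.34, 5.89 and 6.37 in TAC JQ1 hearts, against 6.86, 6.95 and 7.01 in sham hearts, and it fell by 1.07 ± 0.24 (adjusted p = 0.00202). Every array of TAC JQ1 hearts was thus below every sham array in this gene. Clec7a fell by 0.48 ± 0.11 and 0.51 ± 0.11 (adjusted p = 0.00745 and 0.00203), the day 11 call being lost without TAC JQ1 replicate 1 (adjusted p = 0.0744).

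Clec12a fell by 1.19 ± 0.27 at day 11 (adjusted p = 0.00494) and had a difference of -0.75 ± 0.27 at day 28 (0.0528), which passed without TAC JQ1 replicate 1 (-0.96, adjusted p = 0.0275) and under 6 of the 9 other settings. Clec4a2 was called at day 28 (-0.68 ± 0.23, adjusted p = 0.0399), a call that was lost without any 1 of the sham arrays of day 28 or without TAC JQ1 replicate 1 or 2 (adjusted p = 0.0665 to 0.161), and not at day 11 (-0.69 ± 0.23, adjusted p = 0.0586). Clec4a3 had -0.63 ± 0.23 and -0.52 ± 0.23 (0.0802 and 0.124), and Clec4n -0.53 ± 0.23 and -0.27 ± 0.23 (0.155 and 0.499). Clec4d, Clec4e, Clec5a and Clec10a ranged from -0.30 to 0.28 over both days, with adjusted p of 0.361 or more.

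At day 3, the first time point, the pattern is given as a description. Clec4a1 had 5.01, 5.37 and 5.8 in TAC JQ1 hearts, 7.49, 7.71 and 8.06 in TAC vehicle hearts and 7.07, 7.48 and 7.66 in sham hearts. Clec12a had 5.57, 6.5 and 6.66 in TAC JQ1 hearts, 8.03, 8.13 and 9.07 in TAC vehicle hearts and 7.37, 7.71 and 7.86 in sham hearts. In both genes the TAC JQ1 arrays were the 3 lowest of the day. The differences of TAC JQ1 minus TAC vehicle were -2.36 for Clec4a1, -2.17 for Clec12a, -1.85 for Clec4a3, -1.30 for Clec4n, -1.27 for Clec4a2, -1.08 for Clec5a, -0.79 for Clec7a, -0.60 for Clec4e, -0.26 for Clec4d and -0.19 for Clec10a. In 7 of 10 the TAC JQ1 arrays all lay below the TAC vehicle arrays, which held for 12% of all genes, and since the set was proposed with this comparison known nothing is read from the count.

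Against sham hearts, 7 of 10 receptors had all TAC JQ1 arrays lower at day 3, as had 15.2% of all genes, with -2.01 for Clec4a1, -1.40 for Clec12a, -1.27 for Clec4a3, -0.95 for Clec4a2 and -0.92 for Clec7a. Clec10a had -0.58, which was -0.33 without sham replicate 1 and -0.37 without TAC JQ1 replicate 1. Between TAC vehicle and sham hearts 3 of 10 had all TAC vehicle arrays higher, as had 9.7% of all genes: Clec5a (0.81), Clec12a (0.76, or 0.43 without TAC vehicle replicate 2) and Clec4d (0.67). Clec4e had its highest group mean of the study in TAC vehicle hearts of day 3, at 5.77, 6.63 and 6.95, against 5.39, 5.63 and 5.79 in sham hearts, a difference of 0.85 with overlapping groups. With JQ1 it differed by -0.94 at day 3 when TAC vehicle replicate 1 was left out and by -0.35 when replicate 2 was. Clec4d reached 7.48 on TAC JQ1 replicate 1 of day 3, against 6.08 and 6.14 on the other two, and without this array its difference from TAC vehicle was -0.72 and that from sham -0.04, against 0.41 with it. Without either of the other two, Clec4d differed from TAC vehicle by -0.04 and -0.01.

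In sham hearts no receptor was called over days 3, 11 and 28, where 0.0652% of all genes were. At an unadjusted p under 0.05 in limma there were 2 of 10, and 1374 of all 19937 genes. Clec7a had 6.85, 7.09 and 7.2 in sham hearts at day 3, 6.66, 6.66 and 6.72 at day 11 and 6.47, 6.57 and 6.67 at day 28 (moderated F test of limma across all genes, adjusted p = 0.253). Clec10a had 6.71, 6.84 and 7.55 at day 3, 6.27, 6.46 and 6.76 at day 11 and 6.5, 6.55 and 6.64 at day 28 (same limma test across all genes, adjusted p = 0.563). In order of sham group means both were highest at day 3, by amounts that did not pass over all genes.

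Macrophage markers moved with the receptors. The mean of 18 pan-macrophage markers was 8.21 to 8.25 in TAC JQ1 hearts at day 11, against 8.72 to 8.89 in TAC vehicle hearts and 8.19 to 8.23 in sham hearts. At day 28 it was 8.35 to 8.65 in TAC JQ1 hearts, against 8.83 to 9.14 in TAC vehicle hearts and 8.08 to 8.15 in sham hearts. Of these markers 13 of 18 fell with JQ1 at day 11 (median difference -0.53) and 10 of 18 at day 28 (-0.41), and 13 and 15 rose with TAC (0.58 and 0.92). Lyz2, the lysozyme of myeloid cells, fell by 0.41 ± 0.11 at day 11 and by 0.38 ± 0.11 at day 28 with JQ1 (adjusted p = 0.015 and 0.02). C1qb, a complement chain made by macrophages, fell by 0.53 ± 0.12 at day 11 (adjusted p = 0.00512) and had -0.34 ± 0.12 at day 28 (0.0611), and C1qc fell by 0.41 ± 0.13 and 0.44 ± 0.13 (0.0269 and 0.0165).

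The receptor differences were larger than that of the marker mean in some members and not in others, as a description. TAC JQ1 minus TAC vehicle was -0.57 for the marker mean at day 11 and -0.47 at day 28. Clec4a1 differed by a further -1.67 and -1.92, Clec12a by -1.45 and -1.55, Clec4n by -1.07 and -1.14, Clec4a3 by -0.86 and -1.35 and Clec4a2 by -0.65 and -1.13. Clec7a and Clec5a differed by a further -0.35 to -0.21, and Clec4e by 0.36 and 0.73 the other way. Single markers of the 18 departed from their mean as well. With JQ1 Mpeg1 had -1.35 and -1.27, while 2 markers at day 11 and 1 at day 28 had differences above 0. Against sham hearts, the marker mean of TAC JQ1 hearts differed by 0.01 at day 11 and by 0.40 at day 28, while Clec4a1 differed by -1.51 and -1.07. The part of cell number in the receptor differences was not tested, and with the marker mean as a covariate the groups are hardly separable from it, because every TAC vehicle array lay above every other array in this mean.

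**Figure D3:**
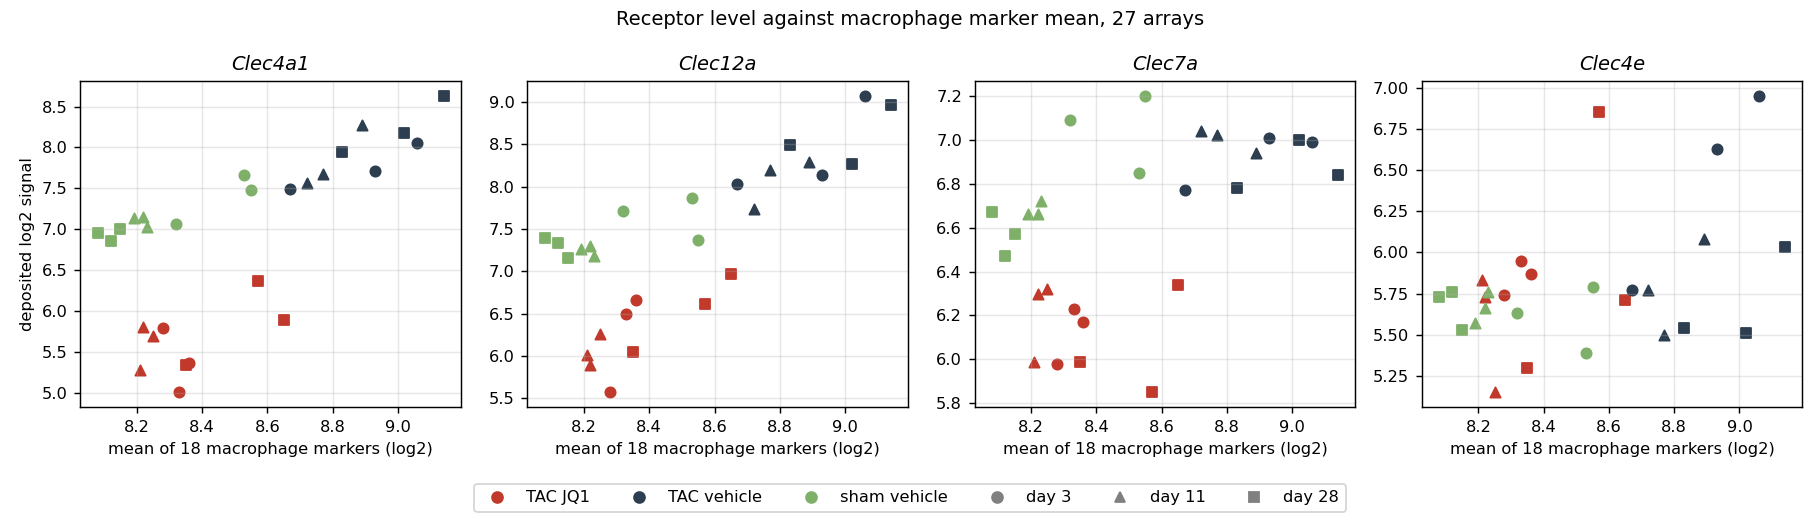
Deposited log2 signal of Clec4a1, Clec12a, Clec7a and Clec4e (vertical axes, 1 per panel) against the mean log2 signal of 18 macrophage markers (horizontal axis) on the 27 arrays; colours give the group and shapes the day. At marker means of 8.19 to 8.25 the TAC JQ1 arrays of day 11 have Clec4a1 at 5.28 to 5.81 and the sham arrays of day 11 at 7.03 to 7.15, while Clec4e does not separate the groups.

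Markers of other white cells moved less evenly. Of 15 neutrophil markers none changed with JQ1 or TAC at day 11 in limma (0 at an unadjusted p under 0.05) and 1 fell with JQ1 and rose with TAC at day 28, this being Csf3r, the G-CSF receptor (-0.41 ± 0.14, adjusted p = 0.0492, and 0.49 ± 0.14, 0.0231). At day 28, 13 of the 15 differences with JQ1 were above 0 (median 0.23), with TAC JQ1 replicate 3 high in this list as given above. S100a9 and Lcn2 of this list were not called and had 0.42 ± 0.25 and 0.05 ± 0.47 (adjusted p = 0.237 and 0.947). Of 11 recruited monocyte markers 3 fell with JQ1 at each day and 4 and 5 rose with TAC; Thbs1, for thrombospondin, fell by 1.59 ± 0.26 and 1.17 ± 0.26 (adjusted p = 0.000158 and 0.00209). Fn1, for fibronectin, had -0.64 ± 0.23 at day 11 (0.0605) and fell by 0.97 ± 0.23 at day 28 (0.00383), and Nr4a1, a nuclear receptor, had -0.56 ± 0.23 and -0.10 ± 0.23 (0.108 and 0.771). Thbs1, Fn1 and Nr4a1 are the brightest of this list in whole heart, and which cells their signal came from was not tested. Of 11 resident macrophage markers 2 fell with JQ1 at each day, and 9 and 7 had a difference below 0. F13a1, for a coagulation factor subunit, fell by 0.53 ± 0.18 at day 11 (0.0443) and had -0.45 ± 0.18 at day 28 (0.0781). Cbr2, a carbonyl reductase, had -0.38 ± 0.32 and -0.34 ± 0.32 (0.471 and 0.456), and Lyve1, a hyaluronan receptor, 0.16 ± 0.16 and 0.38 ± 0.16 (0.541 and 0.0877). Of 14 dendritic cell markers 7 fell with JQ1 at day 11 and 4 at day 28, when 1 rose. Their median difference was -0.37 at day 11 and -0.01 at day 28, when 7 differences were below 0 and 7 above. The 4 that fell at day 28 were H2-Aa, H2-Ab1, H2-Eb1 and Cd74, named after their values were seen. They serve MHC class II antigen presentation. Of 10 pan-leukocyte markers 7 fell with JQ1 at day 11 and 6 at day 28, of 10 fibroblast markers 4 and 4, of 10 endothelial markers 2 and 5, and of 12 lymphocyte markers 1 and 0. The share of these cells in the receptor differences was not tested.

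The signalling partners of the receptors had smaller median differences. Of 16 ITAM adaptors and kinases 9 fell with JQ1 at day 11 and 7 at day 28 (median differences -0.38 and -0.28), and 9 and 10 rose with TAC (0.46 and 0.42); none moved the other way. Syk, the kinase that activating receptors share, had a mean of 7.91 in TAC JQ1 hearts at day 11, against 8.7 in TAC vehicle hearts, and fell by 0.79 ± 0.09 (adjusted p = 5.6e-06) and by 0.55 ± 0.09 at day 28 (0.000166). Prkcd, the kinase between Syk and Card9, fell by 0.45 ± 0.09 and 0.55 ± 0.09 (0.00106 and 0.000114), Vav3 by 0.35 ± 0.08 and 0.52 ± 0.08 (0.00668 and 0.000117) and Blnk, an adaptor phosphorylated by Syk, by 0.36 ± 0.09 and 0.62 ± 0.09 (0.00816 and 3e-05). Tyrobp, the adaptor of Clec5a, fell by 0.54 ± 0.15 and 0.61 ± 0.15 (0.0147 and 0.00506) and rose with TAC by 0.72 ± 0.15 and 1.32 ± 0.15 (0.00144 and 2.72e-06).

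Fcer1g, the adaptor of Clec4n, Clec4d and Clec4e, rose with TAC by 0.51 ± 0.16 at day 11 and 1.57 ± 0.16 at day 28 (adjusted p = 0.0344 and 9.12e-07). With JQ1 it had -0.47 ± 0.16 and -0.34 ± 0.16 and did not pass (0.0509 and 0.142). At day 28 its mean was 9.79 in TAC JQ1 hearts, against 10.13 in TAC vehicle hearts and 8.55 in sham hearts, so that in TAC JQ1 hearts this adaptor was nearer to TAC vehicle while Clec4n was nearer to sham. Whether the 2 genes differ in their response was not tested.

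Downstream, 18 genes of the Card9, NF-kB and NFAT step gave 5 lower and 1 higher with JQ1 at each day (medians -0.13 and -0.04), and 3 and 2 higher with TAC. Casp8, a protease, fell by 0.62 ± 0.15 and 0.77 ± 0.15 (adjusted p = 0.00462 and 0.00049), Nfatc2, a calcium-regulated transcription factor, by 0.42 ± 0.10 and 0.43 ± 0.10 (0.00395 and 0.0023), and Rela, an NF-kB subunit, by 0.39 ± 0.08 at day 28 (0.00196). Malt1, which acts beside Bcl10 and Card9, rose by 0.29 ± 0.06 and 0.31 ± 0.06 (0.00368 and 0.00142). With TAC Casp8 rose by 0.73 ± 0.15 and 0.74 ± 0.15 (0.000958 and 0.00101), and Bcl10 by 0.28 ± 0.07 and 0.24 ± 0.07 (0.00438 and 0.0172). Of 7 phosphatases and regulators of the ITIM arm 3 fell with JQ1 at each day. Inpp5d fell by 0.43 ± 0.11 and 0.58 ± 0.11 (0.00951 and 0.000654), Csk, a kinase that restrains Src kinases, by 0.26 ± 0.08 and 0.30 ± 0.08 (0.0349 and 0.013) and Ptpn6 by 0.35 ± 0.08 at day 11 (0.00528). With TAC 3 of the 7 rose at day 11, and 1 rose and 1 fell at day 28. The 1 that fell was Inppl1 (-0.39 ± 0.10, 0.00962), which also fell with JQ1 at day 28 (-0.34 ± 0.10, 0.0201).

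Cytokines, chemokines and enzymes that these receptors induce hardly passed. Of 16, 1 fell with JQ1 at day 11 and 1 rose at day 28, and 1 and 2 rose with TAC. Ptgs2, the inducible cyclooxygenase, fell by 0.81 ± 0.21 at day 11 (adjusted p = 0.0106) and rose with TAC by 0.72 ± 0.21 and 0.96 ± 0.21 (0.0208 and 0.00286). Il6 rose with TAC at day 28 by 0.62 ± 0.20 (0.0392). Cxcl2, a chemokine for neutrophils, rose with JQ1 at day 28 by 1.52 ± 0.51 (0.0369), and that comparison includes TAC JQ1 replicate 3, on which this list was high as given above.

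Other C-type lectins were mostly not called. Of 54 measured 11 fell with JQ1 at day 11 and 9 at day 28, when 2 rose, with medians of -0.17 and -0.03, and 10 and 8 rose with TAC, 1 falling at day 11. Cd72, a lectin with an ITIM on B cells and some macrophages, fell by 1.33 ± 0.24 and 1.23 ± 0.24 (adjusted p = 0.000438 and 0.000643). Cd93, an endothelial and myeloid lectin, fell by 0.77 ± 0.10 and 0.92 ± 0.10 (2.26e-05 and 1.52e-06), and Mrc1, the macrophage mannose receptor, by 0.81 ± 0.16 at day 28 (0.000994). Clec9a, the dectin-like receptor of cross-presenting dendritic cells, which lies between Clec12a and Clec7a, fell by 0.44 ± 0.11 at day 11 (0.0104) and by 0.47 ± 0.11 at day 28 (0.00511).

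Neighbours in the 2 stretches were looked at for their position. Between Clec4a1 and Clec4e, Clec4a4 had -0.22 ± 0.11 and -0.11 ± 0.11 with JQ1 at days 11 and 28 (adjusted p = 0.183 and 0.483). Clec4b1 had -0.27 ± 0.19 (0.381) and fell by 0.64 ± 0.19 at day 28 (0.0183), and Clec4b2 fell by 0.43 ± 0.13 at day 11 (0.0284) and had 0.10 ± 0.13 at day 28 (0.614). In the other stretch Clec12b had -0.23 ± 0.13 and -0.08 ± 0.13 (0.261 and 0.688), and Clec1b -0.12 ± 0.14 and 0.05 ± 0.14 (0.619 and 0.805). Clec1a, an endothelial lectin, had -0.34 ± 0.15 and -0.41 ± 0.15 (0.132 and 0.0593). Receptors with large falls and neighbours that were not called thus stand side by side in both stretches.

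**Figure D4:**
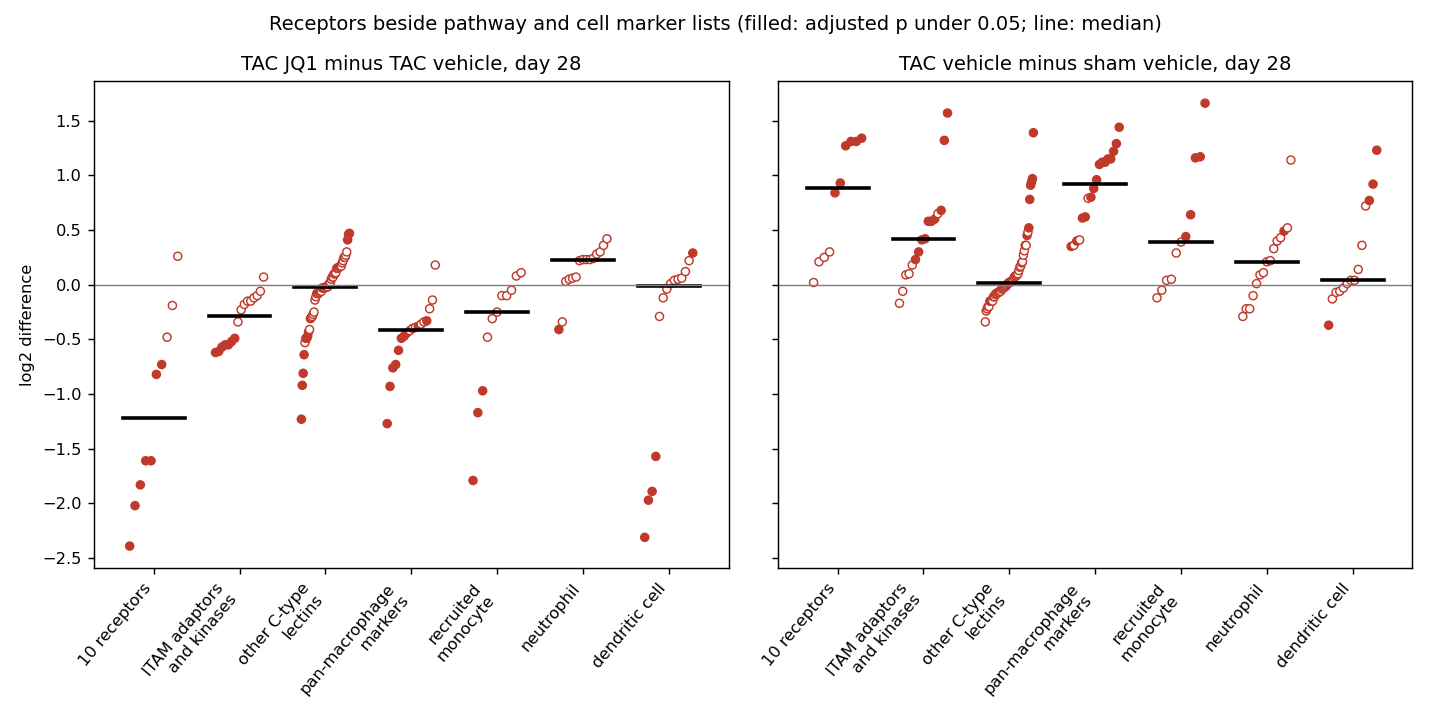
Log2 differences (vertical axis) at day 28 of single genes (points, ordered within each list) in the 10 receptors, 2 related gene lists and 4 cell marker lists, for TAC JQ1 minus TAC vehicle (left) and TAC vehicle minus sham vehicle (right); filled points are genes at adjusted p under 0.05 and lines the list median. The median of the receptors is -1.21 in the left panel and 0.89 in the right, beside -0.41 and 0.92 for the pan-macrophage markers.

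Across the 27 arrays 5 of the receptors varied together, a grouping made after the values were seen. The 10 pairs among Clec4a1, Clec4a2, Clec4a3, Clec4n and Clec12a had Pearson correlations of 0.88 to 0.95, and 0.29 to 0.75 after group means were removed. These 5 had correlations of 0.19 to 0.48 with Clec4d or Clec4e, and -0.23 to 0.67 after group means were removed, a range that overlaps the other. Clec5a correlated with the 5 at 0.75 to 0.84, and at 0.51 to 0.73 after group means were removed. For Clec7a the ranges were 0.76 to 0.85 and -0.1 to 0.24, and for Clec10a 0.42 to 0.57 and -0.09 to 0.41. The 5 were thus not set apart from all other members. The arrays share the groups, and no p is given. The 10 genes nearest to the mean of the receptors over the 27 arrays were Fcgr1, Sla, Gmfg (each r = 0.95), Cd180, Mpeg1, Milr1 (each 0.94), Cd84, Tlr1, Tmem106a and Itgam (each 0.93). After group means were removed, their correlations ran from 0.44 for Cd180 to 0.88 for Itgam. With JQ1 Cd180, a Toll-like receptor homologue, had -1.92 at day 11 and -1.98 at day 28, Mpeg1, a macrophage pore protein, -1.35 and -1.27, Fcgr1, the high affinity IgG receptor, -1.07 and -0.73, and Itgam, the CD11b integrin, -0.93 and -0.93. Mpeg1, Fcgr1 and Itgam are also among the 18 pan-macrophage markers, whose mean differed by -0.57 and -0.47.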

How the data were processed

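Mouse heart RNA was measured on 27 Affymetrix whole-transcript arrays after Ambion WT amplification, per the labels' protocols. The authors deposited log2 signals of 34760 probe sets, 1.67 to 14.2, with none missing. Their normalization was not given in the sources used here; the submitters' processing notes name limma without a version. No scan or hybridization batch is given. Each group has 3 arrays, and this number limits the precision.

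Probe sets were named through the platform annotation: 21640 named 1 gene, 1321 several and 11799 none, the last 2 kinds being left out. The probe set with the highest mean was kept for each gene. A mean for each of 9 groups was fitted with lmFit and eBayes (limma 3.58.1, R 4.3.3, data.table version 1.17.8; 18 residual and 4.9 prior degrees of freedom), and p was adjusted by Benjamini-Hochberg over 19937 genes. The steps were tested on simulated data. The members and all gene lists were chosen with earlier results of these data known. Named are all 10 members, the 10 genes nearest by correlation and the 3 brightest markers of 4 cell lists. From the pathway and other-lectin lists, genes were taken out of the up to 4 called with the smallest p per comparison. Not all of these are given in the text. Exceptions are the genes next to the members and the adaptors Fcer1g and Tyrobp, added for position and role, and the 4 dendritic cell markers. Arrays of a group differed from each other by an SD of 0.225 to 0.463 over genes, and none was an identical copy. Promoters were those of RefSeq (GRCm38.p6); those of Clec4n and Clec10a were not analysed here. Alternatives were a second quantile normalization, median centring, a filter that drops the dimmest 1 in 3 genes, array weights, the mean of probe sets, trend and robust eBayes, the compared groups alone, a replicate block, the macrophage marker mean as a covariate and each array left out.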

Additional observations from a re-analysis of the deposited data

How the results depend on the processing

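Counts of members called, with each array left out in turn, ranged from 6 to 8 for TAC JQ1 against TAC vehicle at day 11 and from 6 to 8 at day 28 (main 8 and 7), from 1 to 6 and 4 to 7 for TAC vehicle against sham (main 5 and 6) and from 2 to 4 at both days for TAC JQ1 against sham (main 3 and 3). Array weights gave 8 members for TAC vehicle against sham at day 11, 6 for TAC JQ1 against sham at day 11 and 1 for the sham level over days. With the compared groups alone TAC JQ1 against sham gave 5 members at day 11 and 5 at day 28. Without the dimmest genes (1 in 3 by mean), which removes 5 members (Clec4a2, Clec4d, Clec4e, Clec4n and Clec5a), the counts were 4 and 4 for TAC JQ1 against TAC vehicle at days 11 and 28 and 3 for TAC vehicle against sham at day 28. The shares of all genes called under these settings, and under the covariate below, are not given here. A gain or loss in these counts is therefore not read as particular to the receptors.

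With the macrophage marker mean as a covariate, which nearly coincides with the TAC vehicle groups, the member counts were 0 and 3 for TAC JQ1 against TAC vehicle at days 11 and 28, 0 and 0 for TAC vehicle against sham, and 6 and 6 lower for TAC JQ1 against sham. Under it TAC vehicle minus sham at day 11 turned to -0.41 for Clec4a1, -0.6 for Clec4a2, -0.41 for Clec4a3, -1.04 for Clec4e, -0.07 for Clec4n, -0.42 for Clec5a and -0.34 for Clec12a. At day 28 it turned to -0.4 for Clec4a1, -0.78 for Clec4a2, -0.51 for Clec4a3, -0.39 for Clec4d, -1.73 for Clec4e, -0.44 for Clec4n, -0.83 for Clec5a, -0.07 for Clec7a, -0.28 for Clec10a and -0.5 for Clec12a. TAC JQ1 minus TAC vehicle turned to 0.92 for Clec4e, 0.31 for Clec5a and 0.03 for Clec10a at day 11, and to 0.16 for Clec4d and 0.17 for Clec5a at day 28. TAC JQ1 minus sham at day 28 turned to -0.23 for Clec4d, -0.53 for Clec4e and -0.66 for Clec5a. The cause was not tested.

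Values near 0 changed sign when single arrays were left out. For TAC vehicle minus sham, Clec4e ranged from -0.03 to 0.26 at day 11 and from -0.15 to 0.11 at day 28 (-0.05 without sham replicate 2), and Clec10a from -0.13 to 0.12 at day 11 (0.04 and 0 without TAC vehicle replicates 1 and 2). For TAC JQ1 minus TAC vehicle at day 28, Clec4d ranged from -0.31 to 0.01 and Clec4e from -0.19 to 0.59. For TAC JQ1 minus sham, Clec4e ranged from -0.22 to 0.12 at day 11 and from -0.17 to 0.6 at day 28, and Clec5a from -0.22 to 0.04 (0.06 with array weights) and from -0.17 to 0.34. The block of replicate numbers ended 1 member call, Clec4a1 for TAC vehicle against sham at day 11 (0.73, adjusted p = 0.0512), and no other; the numbers do not pair the arrays, since deviations of same-numbered arrays correlated at -0.46 to 0.5 and none of 9 comparisons had all pairs over 0.1. The eBayes trend and robust options ended the Clec12a call of that comparison (adjusted p = 0.0546). Second quantile normalization and median centring ended none. The mean of probe sets ended none either, but each member has 1 probe set, so the members' own values could not change under it.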
